A study of Mus musculus with 2 samples.

Results

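NeuroD1 and 8 related transcription factor genes were followed in endothelial cells isolated from mice that carry a Tie2-driven Cre recombinase. The 9 genes were taken by symbol from a table of 53465 mouse genes, by a rule that uses no measured value. They are Neurod1, its relatives Neurod2, Neurod4 and Neurod6, the proneural factors Neurog2 and Atoh1, and the E-proteins Tcf3, Tcf4 and Tcf12. A NeuroD1-treated group was set against a GFP-treated group, with 1 library each, both of the C57Bl/6 strain and the tie2-cre genotype. GFP is a fluorescent protein that serves as the control cargo. The series title places the work in intravenous NeuroD1 gene therapy after ischemic stroke. Each library came from 10000 endothelial cells, collected from 3 mice. Vector, dose, time after treatment, age and whether these animals had a stroke are not given in the labels. Tie2 promoters are also active in blood-forming cells, and no isolation marker is named.

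Proneural factors share a basic helix-loop-helix (bHLH) domain, whose basic part reads the DNA and whose helices hold 2 proteins together. NeuroD and neurogenin proteins bind DNA as dimers with an E-protein, at short sites called E-boxes, and drive progenitors of the nervous system toward neurons. ID proteins take up E-proteins in dimers that cannot bind DNA, and HES and HEY proteins repress proneural genes downstream of Notch. Endothelial cells are not known for proneural factors. They do use E-proteins, with TAL1 and LMO2 as partners in vessel and blood development.

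Values are FPKM, the fragments of a gene divided by its exon length and by 1 factor per library. The division by length is meant to set levels side by side between genes, but the library primers mark the 3' end of transcripts. Levels and ranks compared between genes depend on that division, which lowers genes with long exons. A whole number of reads was recovered behind the FPKM of each of the 9 genes. Intervals are exact 95% intervals of the counting error and of nothing else. No test was made and no difference has a replicate check, as each group has 1 library. Differences are log2(FPKM + 1) in the NeuroD1 library minus the GFP library, on which changes of low genes look smaller than they are. A gene was counted as 2-fold higher or lower at a difference of at least 1 in size, when it had 5 FPKM or more in one library or both.

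Recovered reads came to 2001425 in the NeuroD1 library and 2011126 in the GFP library, of which 851963 and 958795 lay outside the 19 genes above 1000 FPKM. A read on 1000 bases stood for 0.513 FPKM in the NeuroD1 library and 0.453 FPKM in the GFP library. Equal reads therefore give an FPKM ratio of 1.13, although the recovered reads were nearly equal. The factor behind the FPKM is thus not the recovered reads alone. Endothelial markers were present: all 13 were at 1 FPKM or more, and 11 in the NeuroD1 library and 12 in the GFP library exceeded the 95th percentile of the olfactory receptor genes described next. Of 11 neuron markers, 3 and 2 did so, of 7 astrocyte markers 0 and 1, of 8 oligodendrocyte lineage markers 2 and 2, of 9 microglia markers 1 and 2, of 7 mural markers 1 and 2, and of 8 blood cell markers 2 and 5. No marker of any of these lists was at 0 in either library.

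Olfactory receptor genes (Olfr), which detect odours in the nose, gave the background level. Of 1092 such genes, 97.9% had a value above 0 in the NeuroD1 library and 98.8% in the GFP library. Their median was 1.48 FPKM in the NeuroD1 library and 1.62 FPKM in the GFP library, with 95th percentiles of 5.29 and 4.75 FPKM. A median Olfr gene held 9 reads in the NeuroD1 library and 11 reads in the GFP library. Across the 1091 Olfr genes with recovered reads, which share the same libraries, reads and exon length had a Spearman rho of 0.60 in the NeuroD1 library and 0.64 in the GFP library. The middle 95% of Olfr differences between the libraries ran from -1.25 to 1.02. Values of a gene within these ranges cannot be told from those of odour receptors, for which endothelial cells are not known.

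The delivered factor stood far above all of this. Neurod1 (ENSMUSG00000034701, GRCm38 chromosome 2, 79452521 to 79456751, minus strand, 2 exon blocks of 2729 bases together) had 182 FPKM from 970 reads in the NeuroD1 library, against 0.664 FPKM from 4 reads in the GFP library. The FPKM ratio was 275 (interval 107 to 1010) and the difference 6.78. Among 22040 protein-coding genes it ranked 21 in the NeuroD1 library and 20645 in the GFP library. The sequence delivered, its species and whether it carries the untranslated parts of the mouse gene are not in the labels, so reads of a transgene and of the mouse gene cannot be told apart.

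At the Olfr median, a gene as long as Neurod1 would hold 7.90 reads in the NeuroD1 library and 9.74 reads in the GFP library. The 970 reads of the NeuroD1 library were 123 times that number, and the 4 reads of the GFP library were 0.411 times it. Of the Olfr genes, 100% had a lower FPKM than Neurod1 in the NeuroD1 library and 8.70% in the GFP library. The GFP library therefore gives no level of Neurod1 above the receptor background, and the ratio of 275 has such a value as its base. With the Olfr median subtracted from both libraries, Neurod1 in GFP is left at 0 and the difference is 7.51.

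Neurod1 shares exon bases with both of the genes it overlaps. Cerkl, a protein-coding gene on the same strand, shares 201 bases and had 2.33 FPKM from 24 reads in the NeuroD1 library and 1.71 FPKM from 20 reads in the GFP library. The noncoding gene Gm26755 on the opposite strand shares 154 bases and had 3.28 FPKM from 17 reads and 2.04 FPKM from 12 reads. Both have far fewer reads than the 970 counted for Neurod1 in the NeuroD1 library. How reads in shared bases were assigned is not given in the sources used.

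**Figure D1:**
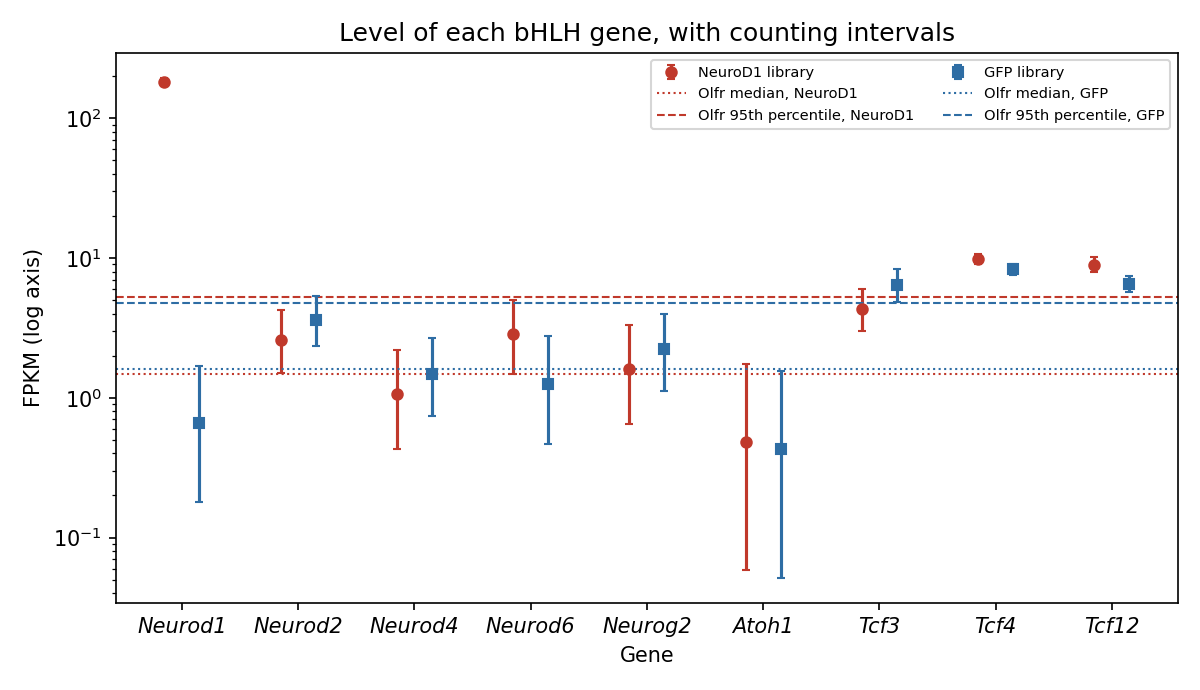
FPKM of the 9 bHLH genes on a log axis, NeuroD1 library (circles) beside GFP library (squares), with exact 95% Poisson intervals of the reads as bars and the median and 95th percentile of Olfr genes as lines. Neurod1 stands at 182 FPKM in NeuroD1 and 0.664 FPKM in GFP, while the other NeuroD and proneural genes lie below the 95th percentile line in both libraries and Tcf4 and Tcf12 above it.

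None of the other NeuroD genes passed the minimum of 5 FPKM, and none of their log2(FPKM + 1) differences reached 1. Neurod2 (ENSMUSG00000038255, chromosome 11, 98325415 to 98329648, minus strand), a factor of maturing cortical neurons, had 2.61 FPKM from 16 reads in the NeuroD1 library and 3.60 FPKM from 25 reads in the GFP library. Its ratio was 0.725 (interval 0.362 to 1.41). It exceeded 79.5% of Olfr genes in the NeuroD1 library and 90.0% in the GFP library, so its level was inside the receptor range in both.

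Neurod4 (ENSMUSG00000048015, chromosome 10, 130268152 to 130280240, minus strand), which acts with proneural factors in retina and midbrain, had 1.07 FPKM from 7 reads in the NeuroD1 library and 1.49 FPKM from 11 reads in the GFP library. The ratio of 0.721 had an interval of 0.237 to 2.04. Both values lay below the Olfr median of their library.

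Neurod6 (ENSMUSG00000037984, chromosome 6, 55677822 to 55681263, minus strand), a factor of excitatory cortical neurons, had 2.86 FPKM from 12 reads in the NeuroD1 library and 1.26 FPKM from 6 reads in the GFP library. This was the largest difference among the 8 other members, at 0.77, with a ratio of 2.27 (interval 0.787 to 7.36). It exceeded 82.9% of Olfr genes in the NeuroD1 library and 32.4% in the GFP library. At these reads the counting interval includes a ratio of 1, and a change in either direction was not detectable.

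The proneural factors were low as well. Neurog2 (ENSMUSG00000027967, chromosome 3, 127633135 to 127635631, plus strand), which starts the neuronal programme in cortical progenitors, had 1.61 FPKM from 7 reads in the NeuroD1 library and 2.24 FPKM from 11 reads in the GFP library, a ratio of 0.721 (interval 0.237 to 2.04). Atoh1 (ENSMUSG00000073043, chromosome 6, 64729125 to 64731245, plus strand), the factor of cerebellar granule cells and inner ear hair cells, had 0.483 FPKM from 2 reads in the NeuroD1 library and 0.427 FPKM from 2 reads in the GFP library. With 2 reads on each side, the interval of the Atoh1 ratio of 1.13 ran from 0.0821 to 15.6.

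Summed over Neurod2, Neurod4, Neurod6, Neurog2 and Atoh1, 44 reads were counted in the NeuroD1 library and 55 in the GFP library. At the Olfr median, genes of their lengths would hold 37.6 reads in the NeuroD1 library and 46.3 reads in the GFP library. The summed reads, scaled as FPKM are, had a ratio of 0.906 (interval 0.595 to 1.37). Of the 5 genes, Neurod6 and Atoh1 had a difference above 0. None stood above the Olfr 95th percentile in either library, which 20.2% of protein-coding genes exceeded in NeuroD1 and 25.6% in GFP. Of the 9 genes, Neurod1, Tcf4 and Tcf12 exceeded that percentile in the NeuroD1 library, and Tcf3, Tcf4 and Tcf12 in the GFP library.

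**Figure D2:**
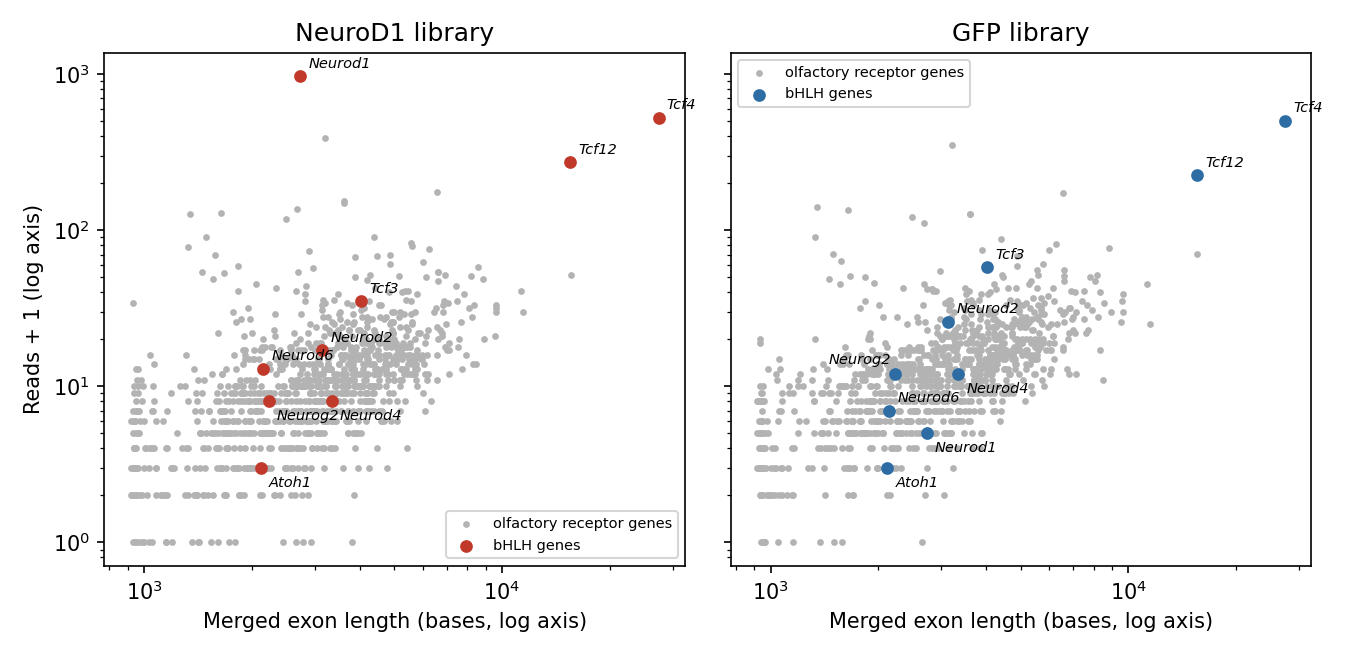
Reads + 1 against merged exon length in bases, both on log axes, for 1091 Olfr genes (grey) and the 9 bHLH genes (coloured), NeuroD1 library on the left and GFP library on the right. Neurod1 lies above every grey point in NeuroD1, at 970 reads, and at the lower edge of the grey cloud for its length in GFP, at 4 reads, while the 5 other NeuroD and proneural genes lie within the cloud in both panels.

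The E-proteins, the dimer partners, were above the receptor background with one exception. Tcf4 (ENSMUSG00000053477, chromosome 18, 69343356 to 69689079, plus strand) had 9.87 FPKM from 527 reads in the NeuroD1 library and 8.33 FPKM from 504 reads in the GFP library. The ratio was 1.18 (interval 1.05 to 1.34) and the difference 0.22. It exceeded 98.1% of Olfr genes in each library, and ranked 943 in NeuroD1 and 1239 in GFP among protein-coding genes.

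Tcf12 (ENSMUSG00000032228, chromosome 9, 71842688 to 72111871, minus strand), also known as HEB, had 8.98 FPKM from 272 reads in the NeuroD1 library and 6.53 FPKM from 224 reads in the GFP library. The ratio was 1.38 (interval 1.15 to 1.65) and the difference 0.41. It ranked 1172 in NeuroD1 and 2602 in GFP. None of the genes annotated within Tcf12 shares exon bases with it.

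Tcf3 (ENSMUSG00000020167, chromosome 10, 80409514 to 80433647, minus strand), which encodes E12 and E47, had 4.32 FPKM from 34 reads in the NeuroD1 library and 6.39 FPKM from 57 reads in the GFP library. The ratio of 0.676 had an interval of 0.428 to 1.05, which includes 1. It was above the Olfr 95th percentile in the GFP library and below it in the NeuroD1 library.

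Together the E-proteins had 833 reads in the NeuroD1 library and 785 reads in the GFP library, with a scaled ratio of 1.20 (interval 1.09 to 1.33). Among 1123 protein-coding genes that held 200 reads or more over both libraries, 18.4% had an interval above 1 and 6.32% an interval below 1, together 24.8%. Intervals above 1 were thus frequent among genes with as many reads as Tcf4 and Tcf12. That minimum of 200 reads was chosen after their values were seen. Endothelial markers had 3 intervals above 1 and 0 below, with 8 of 13 differences above 0. Their sum was 184.7 FPKM in the NeuroD1 library, with a range of 4.48 to 35.98 FPKM, and 173.9 FPKM in the GFP library, with a range of 3.26 to 33.9 FPKM. Of 9 microglia markers 8 were below 0 in difference, with sums of 22.7 FPKM in NeuroD1 and 29.01 FPKM in GFP and with 0 intervals apart from 1. Of 5 blood cell markers past the minimum, S100a8, Pf4 and Hbb-bs were 2-fold lower, and the interval of Hbb-bs excluded 1 (ratio 0.295, interval 0.0984 to 0.746). The others past the minimum, S100a9 and Hba-a1, had differences of 0.92 and 0.61, with intervals that included 1. Of all 8 blood cell markers, 5 had a difference above 0, with sums of 52.1 FPKM in NeuroD1 and 53.4 FPKM in GFP. The part of these cell types in the E-protein values was not tested.

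Counted over all 9 genes, 4 passed the 5 FPKM minimum, and Neurod1 was at least 2-fold higher. None of the other 3 past the minimum, Tcf3, Tcf4 and Tcf12, was 2-fold higher or lower. In the whole table, 2-fold higher calls made up 12.9% and 2-fold lower calls 15.6% of the 14679 genes past the minimum. Among the 6408 protein-coding ones these shares were 3.25% and 3.31%. Of the 8 members other than Neurod1, 4 had a difference above 0, their median was -0.10, and all 8 differences lay within the middle 95% of Olfr differences. That range comes from genes with a median of 9 reads in the NeuroD1 library and 11 in the GFP library. It is too wide to judge Tcf4 and Tcf12, which held far more reads. The median difference over all protein-coding genes was -0.01. The intervals of Tcf4 and Tcf12, 2 of the 8, lay above 1. Of protein-coding genes that held 20 reads or more, 5.93% had an interval above 1 and 6.22% one below 1, together 12.1%.

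When the NeuroD1 library was scaled to the FPKM sum of the GFP library, the median of protein-coding genes at 1 FPKM or more moved by -0.18. The differences of Tcf4 and Tcf12 were then 0.01 and 0.20, and that of Atoh1 was -0.02 in place of 0.06. The intervals of Tcf4 (0.888 to 1.14), of Tcf12 (0.975 to 1.40) and of the E-proteins together (0.925 to 1.13) then included 1. Tcf3 was at -0.66 under that scaling, with a ratio of 0.574 and an interval of 0.364 to 0.892 that excluded 1, and the other directions held. The 2 other scalings kept the deposited reading. Under median ratio scaling, Tcf4 (1.004 to 1.29), Tcf12 (1.10 to 1.58) and the E-proteins together (1.045 to 1.27) stayed above 1. Without genes above 1000 FPKM, these intervals were 1.05 to 1.35, 1.15 to 1.65 and 1.09 to 1.33. The interval of Tcf3 included 1 in both, at 0.411 to 1.01 and 0.430 to 1.05.

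**Figure D3:**
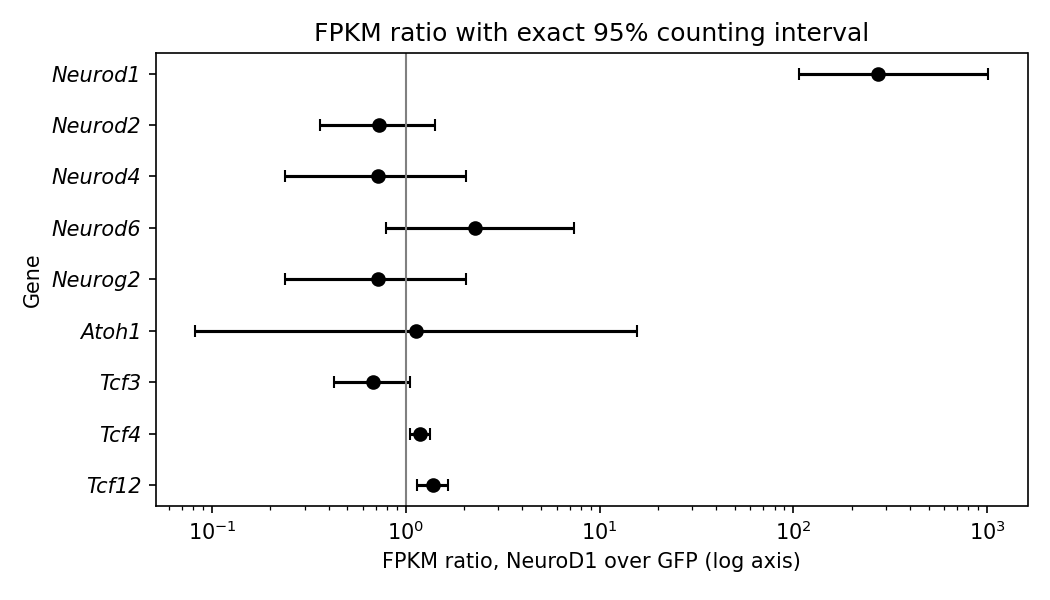
FPKM ratio, NeuroD1 over GFP, of each of the 9 genes on a log axis, with exact 95% counting intervals as bars and a line at 1. Neurod1 stands at 275, the intervals of Tcf4 and Tcf12 lie just above 1, and those of the other 6 genes include 1.

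By level, the NeuroD1 library began with Neurod1, followed by Tcf4 and Tcf12, whose Poisson intervals overlap, and by Tcf3. Neurod6, Neurod2, Neurog2, Neurod4 and Atoh1 came next, and each of their intervals overlapped that of the gene before. In the GFP library the order was Tcf4, Tcf12, Tcf3, Neurod2, Neurog2, Neurod4, Neurod6, Neurod1 and Atoh1. Only Tcf4 and Tcf12 were apart there, as every later neighbour overlapped the gene before it. Neurod1 moved to the first place in NeuroD1, while the E-proteins kept the order Tcf4, Tcf12, Tcf3 in both.

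Per length, Neurod1 exceeded the 3 E-proteins together in the NeuroD1 library, at 182 against a sum of 23.2 FPKM, which is 7.87 times that sum. In the GFP library it was 0.0312 times their sum of 21.3 FPKM. In reads, not per length, the gap in the NeuroD1 library was small, with 970 for Neurod1 and 833 for the E-proteins. Their merged exons are far longer, at 27382 bases for Tcf4 and 15529 bases for Tcf12 against 2729 bases for Neurod1, and the library primers mark the 3' end of transcripts. Neurod1 exceeded its partners on both scales, and the size of the excess depends on the division by exon length. In a bulk library, more cells with Neurod1 and more Neurod1 RNA per cell cannot be told apart.

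Likeness to Neurod1 was taken as the gap between differences over both libraries, among protein-coding genes that held 20 reads or more, with predicted genes left out. The nearest were Klra8 (2.11), Oxt (1.98) and Nme9 (1.93), which are 4.68, 4.80 and 4.85 below Neurod1 on the log2 scale. Oxt, the gene of oxytocin, had 16.2 FPKM from 17 reads in the NeuroD1 library and 3.37 FPKM from 4 reads in the GFP library.

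E-boxes are the letters these factors bind, so the bases upstream of the start sites were searched for them. RefSeq promoters on GRCm38.p6 were found for 8 of the 9 genes, Tcf4 being the other, with 11 start sites. The pattern CANNTG, which reads the same on both strands, was present in the 250 bases before 6 of the 11 starts, against 66.2% of 32851 starts of all genes. CAGATG, searched with its reverse complement, is a form that NeuroD1 dimers bind and occurred before 1 of the 11 starts, that of Neurod2, against 14.4% of all. CAGCTG occurred before 1 start, of Tcf12, against 13.0% of all, and CACCTG with its reverse complement before none, against 17.2%. These 3 forms are also matches of CANNTG. The stretches outside annotated exons are shown for Neurod1 and for the Tcf12 start that holds CAGCTG, 5' to 3' on the minus strand that both genes use, with CANNTG in capitals.
Neurod1, chr2:79456786-79456886: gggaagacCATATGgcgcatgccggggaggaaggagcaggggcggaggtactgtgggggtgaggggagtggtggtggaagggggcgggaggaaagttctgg
Tcf12, chr9:72111872-72112069: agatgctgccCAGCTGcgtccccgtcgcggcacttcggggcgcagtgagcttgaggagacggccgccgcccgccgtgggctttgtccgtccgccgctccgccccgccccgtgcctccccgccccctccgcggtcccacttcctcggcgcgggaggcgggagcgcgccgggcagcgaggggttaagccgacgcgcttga
The Neurod1 stretch holds a single match, CATATG, and Tcf12 the match CAGCTG. A match is a run of letters and no measure of binding, which was not assayed here.

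Beyond the 9 genes, 106 others in 7 lists cover the rest of the proneural bHLH circuit, from partners and inhibitors to linked genes. Of these, 24 passed the 5 FPKM minimum, 1 was called higher and 1 lower at 2-fold, 8.33% in all, against 6.55% of protein-coding genes past the minimum. Their median difference was 0.05. The gene that was higher is Iapp, which encodes a peptide co-secreted with insulin, with 6.32 FPKM from 12 reads in the NeuroD1 library and 0.930 FPKM from 2 reads in the GFP library (ratio 6.80, interval 1.51 to 62.5). The gene that was lower is Ascl4, a bHLH gene of the achaete-scute family, with 2.29 FPKM from 10 reads in the NeuroD1 library and 6.27 FPKM from 31 reads in the GFP library (ratio 0.365, interval 0.160 to 0.765). Of the 69 genes with at least 20 reads, intervals of 7 lay above 1 and of 5 below 1, together 17.4%, beside 5.93% above, 6.22% below and 12.1% together among protein-coding genes.

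Among 19 other proneural and neuronal bHLH factors, the median was 1.42 FPKM in the NeuroD1 library and 1.39 FPKM in the GFP library, near the Olfr median. Of these, 12 had a difference above 0, 2 passed the minimum, and Ascl4 was the 1 that was lower. Under the minimum, Atoh7, a factor of retinal ganglion cells, had 3.46 FPKM from 11 reads in the NeuroD1 library and 1.39 FPKM from 5 reads in the GFP library (ratio 2.49, interval 0.798 to 9.15). Olig1, a factor of the oligodendrocyte lineage, had 1.42 FPKM from 6 reads in the NeuroD1 library and 0.209 FPKM from 1 read in the GFP library (ratio 6.80, interval 0.825 to 313). Ascl3 had 4.39 FPKM from 6 reads in the NeuroD1 library and 7.76 FPKM from 12 reads in the GFP library (interval 0.174 to 1.63). Bhlha15, known as MIST1 in secretory cells, had 29 reads in each library, at 4.26 and 3.76 FPKM. Nhlh1, a gene downstream of proneural factors in neuronal precursors, had 1.66 FPKM from 8 reads in the NeuroD1 library and 3.67 FPKM from 20 reads in the GFP library (interval 0.173 to 1.07).

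Of 20 bHLH factors of other tissues that use E-proteins, 2 passed the minimum and none of these was 2-fold higher or lower. Under the minimum, few reads gave the largest differences. Figla was at -1.40 with 1 read in NeuroD1 and 6 in GFP, Mesp1 at 1.33 with 6 and 1, and Hand1 at 1.19 with 11 and 3. Intervals of 2 genes of the list lay above 1, that of Hand1 (1.10 to 23.2) among them, and 0 below. Neither of the 2 held 20 reads. Tal1, a factor of blood and endothelial development, stood at 7.38 FPKM from 63 reads in the NeuroD1 library and 7.44 FPKM from 72 reads in the GFP library (ratio 0.991, interval 0.695 to 1.41). Lyl1, its close relative, had 2.85 FPKM from 10 reads in the NeuroD1 library and 5.03 FPKM from 20 reads in the GFP library (interval 0.237 to 1.27). The most abundant factor of the list was thus at a similar level in both libraries, with an interval that leaves room for a ratio of 0.695.

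Of the HLH inhibitors, Id1, Id2 and Id3 each had a higher FPKM than any E-protein in both libraries, though fewer reads than Tcf4 or Tcf12, whose exons are longer. Id3 had 21.5 FPKM from 75 reads in the NeuroD1 library and 16.9 FPKM from 67 reads in the GFP library (ratio 1.27, interval 0.900 to 1.79). Id1 had 15.5 FPKM from 35 reads in the NeuroD1 library and 19.1 FPKM from 49 reads in the GFP library (ratio 0.809, interval 0.509 to 1.27). Id2 had 15.1 FPKM from 72 reads in the NeuroD1 library and 9.10 FPKM from 49 reads in the GFP library, and its ratio of 1.66 had an interval of 1.14 to 2.44. Id4 stood at 2.40 and 2.47 FPKM. The 4 genes summed to 54.5 FPKM in the NeuroD1 library and 47.6 FPKM in the GFP library, 3 passed the minimum and none was 2-fold higher or lower.

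Among 12 genes in the list of HES and HEY repressors, 4 passed the minimum and none was 2-fold higher or lower. Bhlhe40 and Bhlhe41, which are in this list without being HES or HEY genes, were among those past the minimum. Hes1, the common target of Notch, stood at 12.6 FPKM from 50 reads in the NeuroD1 library and 12.7 FPKM from 57 reads in the GFP library (ratio 0.994, interval 0.666 to 1.48). Bhlhe40, a repressor of the clock and of hypoxia responses, had 7.30 FPKM from 67 reads in the NeuroD1 library and 12.03 FPKM from 125 reads in the GFP library (ratio 0.607, interval 0.444 to 0.823). Hes5 had 0 reads in the NeuroD1 library and 5 in the GFP library, and the interval of its ratio reached up to 1.24.

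Of 12 co-regulators that bHLH dimers recruit or meet, 6 passed the minimum and none was 2-fold higher or lower. The acetyltransferase gene Ep300 had 19.3 FPKM from 537 reads in the NeuroD1 library and 16.9 FPKM from 533 reads in the GFP library (ratio 1.14, interval 1.01 to 1.29). Its relative Crebbp had 4.01 FPKM from 106 reads in the NeuroD1 library and 5.25 FPKM from 157 reads in the GFP library (ratio 0.765, interval 0.592 to 0.985). Gsk3b, a kinase known to phosphorylate NeuroD in Xenopus, had 15.1 FPKM from 289 reads in the NeuroD1 library and 11.97 FPKM from 260 reads in the GFP library (ratio 1.26, interval 1.06 to 1.49). Among protein-coding genes that held 200 reads or more, as these 3 did, 18.4% had an interval above 1 and 6.32% one below. Intervals of the wider lists are those of the deposited values. They were not recomputed under the scaling that brought the intervals of Tcf4 and Tcf12 to include 1. Lmo2, the adaptor between TAL1 and GATA factors, had 4.73 FPKM from 20 reads in the NeuroD1 library and 6.48 FPKM from 31 reads in the GFP library (interval 0.395 to 1.32).

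In the list of 32 genes linked to NeuroD1 in neuronal differentiation, 5 passed the minimum, none was 2-fold higher or lower, and 21 had a difference above 0, with a median of 0.12. Tubb3, the neuronal tubulin, had 12.4 FPKM from 45 reads in the NeuroD1 library and 8.97 FPKM from 37 reads in the GFP library (ratio 1.38, interval 0.872 to 2.19). The interval lay above 1 for 2 and below 1 for 1 of the 31 genes that held 20 reads or more. The largest difference, 0.92, was that of Sox4, a factor of immature neurons, with 1.07 FPKM from 10 reads in the NeuroD1 library and 0.0944 FPKM from 1 read in the GFP library (ratio 11.3, interval 1.61 to 491.5). Nckap5 had 2.16 FPKM from 51 reads in the NeuroD1 library and 1.05 FPKM from 28 reads in the GFP library (ratio 2.06, interval 1.28 to 3.40). Sox4 and Nckap5 were below the Olfr 95th percentile in both libraries. Of the 11 neuron markers, some of which are in this list, 7 had a difference above 0. They summed to 65.5 FPKM in the NeuroD1 library, with a range of 0.873 to 31.02 FPKM, and to 54.4 FPKM in the GFP library, with a range of 0.770 to 26.8 FPKM. The same gene was highest in both libraries and made up a large part of each sum. The median of the neuron markers was 2.35 FPKM in the NeuroD1 library and 2.55 FPKM in the GFP library. Of their intervals, 1 lay above 1 and 0 below. The part of neuronal RNA in the values of these lists was not tested.

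Of 9 genes linked to NeuroD1 in endocrine cells, where it is known for activating the insulin gene, 3 passed the minimum and Iapp was higher. Ins2, an insulin gene named after its values were seen, had 0 reads in the NeuroD1 library and 1 in the GFP library. Slc2a2, a glucose transporter, had 1.78 FPKM from 20 reads in the NeuroD1 library and 3.54 FPKM from 45 reads in the GFP library (ratio 0.503, interval 0.282 to 0.870). Both of its values lay within the Olfr range.

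**Figure D4:**
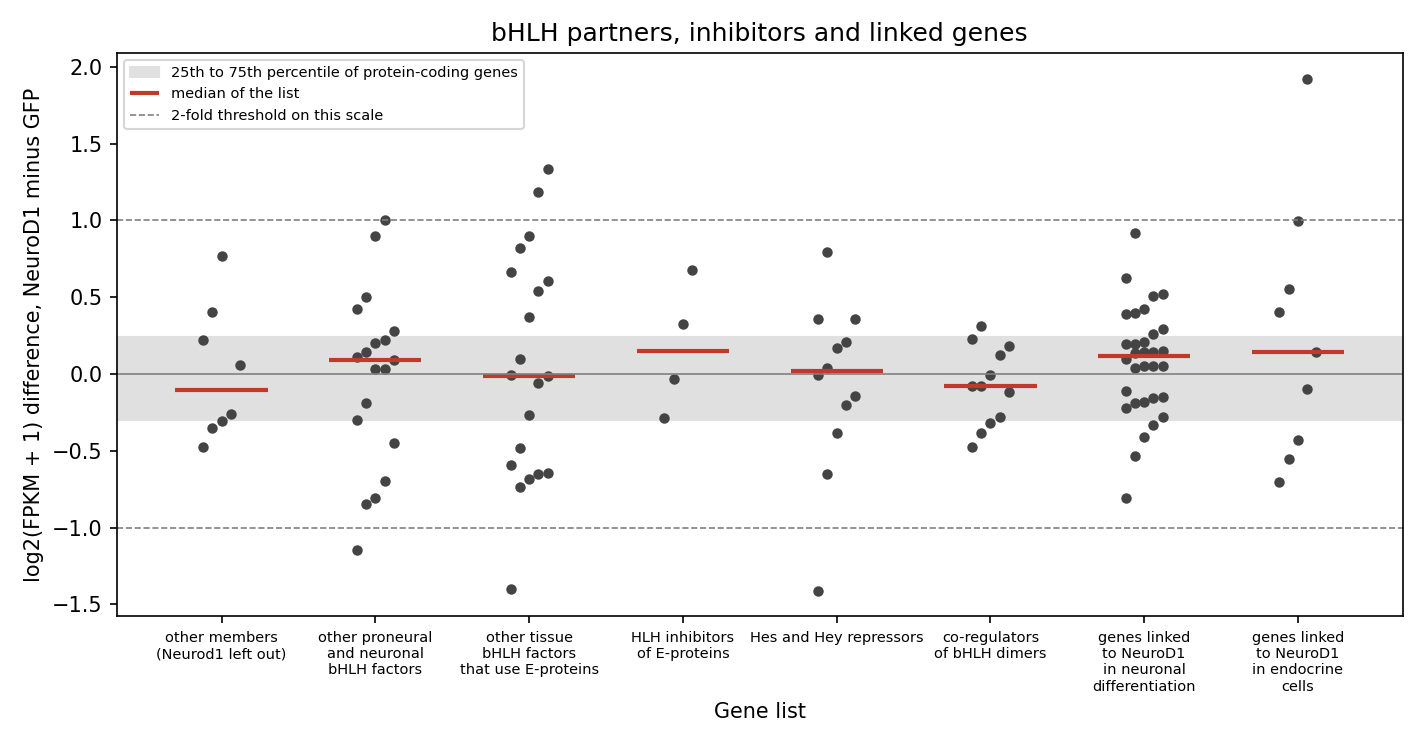
Difference in log2(FPKM + 1), NeuroD1 minus GFP, for each gene of the 8 other members and of the 7 wider lists, with list medians as red bars, the 25th to 75th percentile of all protein-coding genes as a grey band and dashed lines at the 2-fold threshold. List medians lie from -0.10 to 0.15, inside the grey band, and points beyond the dashed lines include Iapp above and Ascl4 below.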

How the data were processed

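Expression was measured in 1 NeuroD1 library and 1 GFP library. Per the labels' protocols, RNA of lysed cells was reverse transcribed with DRUG-seq primers, which tag the 3' end of transcripts. The authors deposited FPKM per gene, and per the submitters' processing notes the tools were featureCounts 1.6.3, Bowtie2 2.3.5.1 and DESeq, with build GRCm38. Strand, multi-mapping reads and molecular identifiers are not given in the sources used here.

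The product of a gene's FPKM and its merged exon length (GENCODE M21) comes in whole steps, of 1 size per library. Whole reads, within 0.02 reads, were recovered for 51075 genes (95.5%). Ratios have exact Clopper-Pearson intervals and levels exact Poisson intervals, both at 95%. Recovery, calls and intervals were tested on simulated data. Olfr and vomeronasal receptor (Vmn) genes were taken by symbol among protein-coding genes.

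The members and lists were chosen with earlier results of these data known. Of each wider list, up to 4 genes with the highest mean FPKM and up to 3 with the largest difference could be named; the values of 1 gene that this takes are not reported. Genes most like Neurod1 were the 3 with the nearest difference among protein-coding genes with 20 reads or more over both libraries, predicted genes left out. Alternatives were other pseudocounts, minimums, scalings and backgrounds. The values came from matplotlib 3.10.9, pandas 2.3.3, scipy 1.17.1 and numpy 2.4.6 under Python 3.11.15.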

Additional observations from a re-analysis of the deposited data

How the results depend on the processing

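No paired analysis was possible because there is 1 library per treatment, so that none could be left out either. The Neurod1 difference of 6.78 was 7.90 with a pseudocount of 0.1 FPKM, 5.05 with a pseudocount of 5 FPKM and 7.51 with the Olfr median subtracted, and from 6.55 to 6.79 under the 3 other scalings. The count of 0 of the 8 other members at 2-fold was 0 under each of the 9 alternatives run. Only 2 or 3 of the 8 could be called in most of them, with 8 at no minimum and 7 at a minimum of 1 FPKM. These last kept the pseudocount of 1 FPKM, which shrinks differences of low genes such as Neurod6, with an FPKM ratio of 2.27. A smaller pseudocount without the 5 FPKM minimum was not run. In the wider lists, 2 genes at 2-fold became 0 with a pseudocount of 5 FPKM, with the Olfr median subtracted and at 5 FPKM in both libraries, and 7 both at a minimum of 1 FPKM and with no minimum. Over all genes, 4182 became 2448 with a pseudocount of 5 FPKM, 10538 with no minimum or a minimum of 1 FPKM, 420 for protein-coding genes and 401 at 5 FPKM in both libraries. With NeuroD1 scaled to the FPKM sum of GFP, 1264 genes were higher and 2685 lower, against 1887 and 2295. Of the 9 genes, 3 exceeded the Olfr 95th percentile in each library. At the 75th percentile 6 did in NeuroD1 and 4 in GFP, and at the 99th percentile 1 did in NeuroD1 and 0 in GFP. With Vmn genes as background, whose 95th percentiles were 3.25 FPKM in NeuroD1 and 3.33 FPKM in GFP, 4 exceeded it in each library. The added genes were Tcf3 in NeuroD1, at 4.32 FPKM, and Neurod2 in GFP, at 3.60 FPKM. Fewer or more genes tested change the counts under other minimums by construction, and the cause was not tested elsewhere. Depth limits the NeuroD and proneural genes other than Neurod1, with 2 to 25 reads in a library.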
